A study of Mus musculus with 6 samples.

Results

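Adenylyl cyclases are the enzymes that make cyclic AMP (cAMP) from ATP. The genes described here are Adcy1, Adcy2, Adcy3, Adcy5, Adcy6, Adcy7, Adcy8 and Adcy9, which encode membrane-bound members of the family. They were taken as every probe set, a group of short probes for one transcript, whose only gene symbol in the platform annotation was one of these names. This gave 20 probe sets of 8 genes, out of 34958 probe sets with a single symbol. The arrays compared the posterior eye of Oa1-/- mouse embryos with that of wild-type (WT) embryos at embryonic day 15.5. There were 3 Oa1-/- and 3 WT arrays, each from a pool of eyes of 6 embryos of 1 dam with the anterior segments removed. The receptor made by Oa1, now named Gpr143, is found in pigment cells and couples to G proteins. The labels name no treatment, and neither the strain, the sex of the embryos nor how much of Oa1 was removed is stated in them.

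Membrane adenylyl cyclases are switched on by the G protein subunit Gαs and differ in what else acts on them. Calcium with calmodulin stimulates Adcy1 and Adcy8 and, in some settings, Adcy3. The βγ subunits of G proteins stimulate Adcy2 and Adcy7, low calcium concentrations inhibit Adcy5 and Adcy6, and Adcy9 responds poorly to the drug forskolin. The cAMP they make activates protein kinase A and the exchange factors Epac, and phosphodiesterases break it down. In pigment cells cAMP acts through the factor CREB on Mitf and melanin synthesis, and in the retina it acts on the growth and guidance of ganglion cell axons. Mice that lack Adcy1 have poorly refined retinal projections. Gpr143 signals through G proteins, so the genotype comparison asks whether the cyclases and their pathway are expressed at other levels in its absence.

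Promoter sequences, from RefSeq on build GRCm38.p6, were found for 6 of the 8 genes, in 9 windows running from 250 bases before to 50 bases after a start site. The sequence bound by CREB, TGACGTCA on either strand, was in 0 of the 9 windows and in 1.79% of all 32851 windows. Its half-site TGACG, which the full site also holds, was in 1 window of Adcy7 and in the window of Adcy9, against 20.8% of all windows. The E-box CACGTG, a sequence that the Mitf family can bind, was in the window of Adcy1 and in 7.15% of all windows. The stretches of 60 bases around these matches are shown because cAMP pathways act on such sequences, with the match in capitals. For Adcy7 the half-site reads as its reverse complement, CGTCA. The stretches lie at chr11:7063236-7063295 on the plus strand, chr8:88282932-88282991 on the plus strand and chr16:4420499-4420558 on the minus strand. The matches start 169, 28 and 24 bases before the start sites of Adcy1, Adcy7 and Adcy9. A match describes the letters only, and no binding was measured here. GC content of the 9 windows ran from 54.7% to 79%, against a median of 52.7% over all windows.
Adcy1 E-box: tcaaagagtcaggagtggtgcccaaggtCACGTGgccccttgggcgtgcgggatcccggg
Adcy7 half-site: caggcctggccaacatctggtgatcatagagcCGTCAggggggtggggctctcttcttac
Adcy9 half-site: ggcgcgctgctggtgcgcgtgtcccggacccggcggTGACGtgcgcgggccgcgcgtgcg

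Signals are given as linear MAS5 intensities, which the authors had scaled to a common level on each array. Without detection calls, the highest of 27 bacterial control probe sets, which read 22.1 to 39.3 on the 6 arrays, served as a guide to background. Gpr143 itself (1420581_at) read 28.3, 39.1 and 6.02 in Oa1-/- and 250.05, 257 and 246 in WT, so all 6 arrays followed their labels (log2 change −2.82, SE 0.34, limma adjusted p = 0.318). With 2 of the 3 Oa1-/- signals above their array's highest bacterial control and the third below it, the size of this change depends on the pseudocount. Of 75 marker genes of 13 ocular and other cell types, 71 had a probe set and 68 passed the filter on low signals. Rpe65, a late marker of pigment epithelium, was at or below the highest bacterial control on all 6 arrays. Transcripts of lens, surface epithelium and skeletal muscle were bright, with mean signals of 27060 for Cryba1, 2573 for Krt15 and 2715 for Acta1. The signals are thus not those of retina and pigment epithelium alone. Arrays stood apart without regard to genotype. Oa1-/- replicate 1 led the first principal component (33.2% of the variance) and had the highest signal of the 3′ control for 18S ribosomal RNA, 6348 against 1476 to 2618 on the other 5 arrays. The median signal was also lowest on Oa1-/- replicate 1, 93.6 against 108 to 129 on the other 5 arrays. WT replicate 3 had signals of 9.26 for Eif2s3y, 13.5 for Kdm5d and 14.4 for Uty, which lie on the Y chromosome, while the other 5 arrays read at least 406, 377 and 189. WT replicate 1 had the lowest summed signal for 9 of the 13 marker lists and the highest for erythroid markers, 20070 against 3393 to 9140 on the other 5 arrays. These sums are weighted towards their brightest genes. In periocular mesenchyme Col1a1 and Col1a2 were lowest on WT replicate 1, but Twist1, Foxc1, Foxc2 and Prrx1 were highest there. Hbb-y made up 19360 of the erythroid sum on that array. Hbb-bh1 was also highest there, while Alas2 was highest on WT replicate 2 and Hba-a1 on Oa1-/- replicate 2.

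No adenylyl cyclase probe set passed the threshold between genotypes. Probe sets with a mean signal above 66.1, the 40th percentile, were tested in limma on log2(signal + 16), and 13 cyclase probe sets of 7 genes were among the 27022 kept. The 7 that did not pass had mean signals between 28.6 and 62.1 and included the only Adcy8 probe set. At an adjusted p below 0.05 there were 0 cyclase probe sets of 13, and 0.0% of all probe sets were called. At an unadjusted p below 0.05 there were also 0 of 13, against 4.1% of all probe sets. The adjusted p-values of the 13 lay between 0.985 and 0.998, and the smallest unadjusted limma p was 0.0936. The log2 change was positive for 6 of the 13 and negative for 7, and its median was −0.03, while the median over all probe sets tested was −0.01. Their log2 changes ran from −0.30 to 0.32. The 95% intervals of 12 of the 13 lay within a 2-fold change either way, and those of 7 within a 1.5-fold change. In whole tissue, fewer cells of a type and less RNA per cell cannot be told apart.

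**Figure D1:**
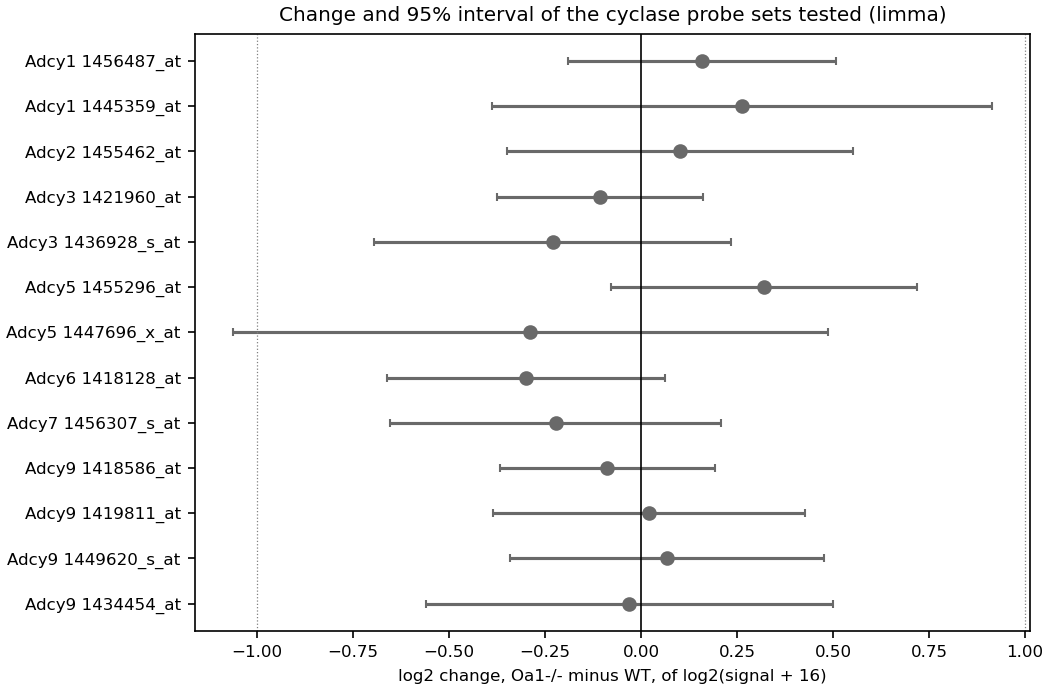
Log2 change (Oa1-/- minus WT, horizontal axis, on the log2(signal + 16) scale) of the 13 cyclase probe sets tested, with 95% intervals from limma and dotted lines at 2-fold. Every interval crosses 0, and only that of Adcy5 1447696_x_at reaches past a 2-fold change.

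Adcy6, inhibited by calcium and a main cyclase of heart muscle, was the only one of the 13 whose genotypes did not overlap. Its probe set 1418128_at read 1231, 1849 and 1919.6 in Oa1-/-, against 2048, 1999.7 and 2000.5 in WT. All 3 Oa1-/- arrays lay below all 3 WT arrays, but the gap between the nearest arrays was small and Oa1-/- replicate 1 lay far below the rest. The mean was 1667 ± 379 in Oa1-/- and 2016 ± 27.8 in WT (SD, n = 3 each). The log2 change was −0.30 (95% interval −0.66 to 0.06, limma adjusted p = 0.985), and an exact permutation test gave p = 0.1, which no comparison of 3 arrays with 3 can go below. Over all probe sets tested, 5.31% did not overlap with the lower values in Oa1-/- and 4.93% with the higher values there. The log2 change was −0.10 without Oa1-/- replicate 1, which also had the highest 18S signal, and −0.41 without Oa1-/- replicate 3 (limma adjusted p = 0.912, with an unadjusted p of 0.0378).

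Adcy5, the other calcium-inhibited cyclase and the main one of the striatum, gave opposite signs on its 2 tested probe sets. On 1455296_at it read 229, 313 and 288 in Oa1-/- and 186, 225 and 243 in WT. The genotypes overlapped only through Oa1-/- replicate 1, which lay below the highest WT array. This gave a log2 change of 0.32 (95% interval −0.08 to 0.72, limma adjusted p = 0.985), the most positive of the 13. It was 0.44 without Oa1-/- replicate 1 (limma adjusted p = 1.00, with an unadjusted p of 0.0325) and 0.52 when WT replicate 3 was left out as well (adjusted p = 0.852, with an unadjusted p of 0.0163). Omitting WT replicate 1 lowered it to 0.22 (unadjusted p of 0.271), and omitting Oa1-/- replicate 2 lowered it to 0.23 (unadjusted p of 0.292). On 1447696_x_at, whose name marks probes that may bind unrelated transcripts, Adcy5 read 149, 117 and 176 in Oa1-/- and 96.0, 242 and 249.9 in WT. On it WT replicate 1 was the lowest of all arrays and the other WT arrays were the highest. Here the log2 change was −0.29 (95% interval −1.06 to 0.49), and leaving out 1 array gave values between −0.70 and −0.07. The value farthest from 0 came from omitting WT replicate 1 (limma adjusted p = 1.00, with an unadjusted p of 0.0131) and the nearest from omitting WT replicate 3 (unadjusted p of 0.848), while omitting WT replicate 2 gave −0.09. Over the 6 arrays the log2 values of these probe sets had a Pearson correlation of 0.11. The remaining Adcy5 probe sets were dim, at 25.7, 46.2 and 48.8 in Oa1-/- against 44.6, 29.4 and 19.7 in WT on 1443080_at. On 1439829_at they were at 24.8, 32.8 and 21.4 in Oa1-/- against 48.4, 34.0 and 17.4 in WT. Each of these lay at or below the highest bacterial control on 2 of the 6 arrays.

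**Figure D2:**
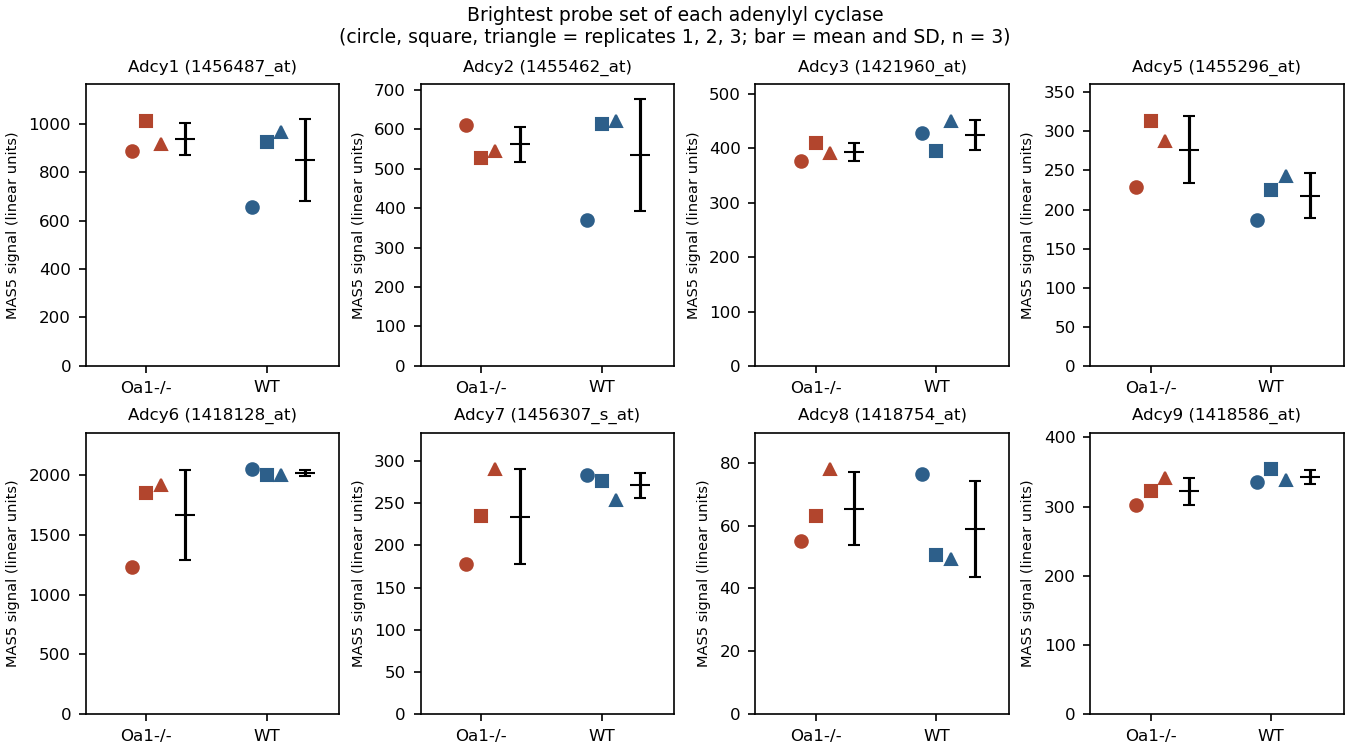
MAS5 signal (linear scale from 0) of the brightest probe set of each of the 8 cyclases in 3 Oa1-/- and 3 WT arrays, with symbols for replicates 1 to 3 and bars for the mean and SD. The genotypes overlap for all but Adcy6, and single low arrays stand out in Adcy1, Adcy2, Adcy6 and Adcy7.

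Among the cyclases linked to stimulation by calcium, Adcy1 is the one known for sharpening retinal and cortical maps in mice. Its brighter probe set, 1456487_at, read 885, 1011 and 915 in Oa1-/- and 655, 925 and 965 in WT. The genotypes overlapped, and WT replicate 1 alone lay well below the other arrays. The mean was 937 ± 65.7 in Oa1-/- and 848 ± 169 in WT (SD, n = 3 each), with a log2 change of 0.16 (95% interval −0.19 to 0.51, limma adjusted p = 0.985). Without WT replicate 1 the change was −0.01. The dimmer probe set 1445359_at read 90.9, 89.7 and 92.6 in Oa1-/-, against 46.9, 71.0 and 114 in WT. It too was lowest on WT replicate 1, and its log2 change was 0.26 (95% interval −0.39 to 0.91). Leaving out WT replicate 1 gave 0.01 on this probe set, and leaving out WT replicate 3 gave 0.53 (limma adjusted p = 0.909). The Adcy1 probe sets moved together across arrays, with a Pearson correlation of 0.86 over 6 arrays that share the same outlying array. Markers of retinal ganglion cells had a summed signal over 5 genes of 30263, 27591 and 27345 in Oa1-/- and 21243, 25261 and 25535 in WT. Like 8 other marker lists this one was lowest on WT replicate 1. The sum was highest on Oa1-/- replicate 1, but Isl1 was highest on Oa1-/- replicate 2 and Pou4f1 on WT replicate 3. The part of the markers in the Adcy1 values was not tested.

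Adcy3, the cyclase of primary cilia and of olfactory neurons, had 4 probe sets, all with a lower mean in Oa1-/-. On the brightest, 1421960_at, it read 377, 410.3 and 391 in Oa1-/- and 429, 395 and 450.5 in WT, which overlapped. The log2 change was −0.11 (95% interval −0.37 to 0.16, limma adjusted p = 0.985). On 1436928_s_at the signals were 188, 332 and 285 in Oa1-/- and 302, 324 and 303 in WT, again with a single low array, Oa1-/- replicate 1. The log2 change there was −0.23 (95% interval −0.69 to 0.23). It was −0.0075 without Oa1-/- replicate 1 and −0.39 without Oa1-/- replicate 2 (limma adjusted p = 0.987).

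The dim Adcy3 probe set 1421959_s_at differed most between genotypes. It read 22.5, 15.0 and 16.8 in Oa1-/-, against 71.7, 51.6 and 63.1 in WT. All 3 Oa1-/- arrays lay far below all 3 WT arrays, a wider separation relative to the spread than in any other cyclase probe set. The Oa1-/- values were at background level: the highest bacterial control read 22.1, 26.5 and 39.3 on these arrays, just under the cyclase signal on the first and above it on the others. With a mean of 18.1 ± 3.94 in Oa1-/- and 62.1 ± 10.1 in WT (SD, n = 3 each), it did not pass the filter. In a fit without that filter its log2 change was −1.20 (SE 0.24), with an unadjusted limma p of 0.00103 and an adjusted p of 0.993 over all probe sets. With the Oa1-/- signals at background, this value does not measure the size of the difference. An exact permutation test again gave p = 0.1. Among the probe sets that passed the filter, 5.31% did not overlap with the lower values in Oa1-/-. No such share is given for the dimmer ones. The platform annotation lists the same source sequence for 1421959_s_at as for 1421960_at, on which the genotypes overlapped. The last Adcy3 probe set, 1436929_x_at, read 76.7, 30.6 and 30.4 in Oa1-/- and 62.7, 64.1 and 39.8 in WT, with a log2 change of −0.27 without the filter. Its highest value was on Oa1-/- replicate 1, the array that was lowest on 1436928_s_at, and the correlation of these probe sets over the 6 arrays was −0.54.

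Adcy8, a calcium-stimulated cyclase of neurons, was measured by 1 dim probe set, 1418754_at, which did not pass the filter. It read 55.2, 63.1 and 77.9 in Oa1-/- and 76.4, 50.6 and 49.5 in WT. The values overlapped over nearly their whole range and lay above the highest bacterial control on every array. The log2 change without the filter was 0.13 (SE 0.26, limma adjusted p = 0.993).

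Adcy2, a neuronal cyclase stimulated by βγ subunits, read 611, 528 and 546 in Oa1-/- and 370.3, 614 and 621 in WT on its only probe set, 1455462_at. WT replicate 1 lay far below the 5 other arrays, which overlapped. The mean was 562 ± 43.5 in Oa1-/- and 535 ± 143 in WT (SD, n = 3 each), and the log2 change was 0.10 (95% interval −0.35 to 0.55, limma adjusted p = 0.987). Leaving out WT replicate 1 gave −0.14, and leaving out WT replicate 3 gave 0.22. Adcy7, the other cyclase of this class and one that is prominent in blood cells, read 178, 235 and 290.3 in Oa1-/- and 283, 276 and 254 in WT on 1456307_s_at. The Oa1-/- arrays spread on both sides of the WT arrays. Its log2 change was −0.22 (95% interval −0.65 to 0.21, limma adjusted p = 0.985), and −0.05 without Oa1-/- replicate 1. Summed macrophage markers, over 5 genes, read 2609, 3060 and 2694 in Oa1-/- against 3028, 3212 and 2869 in WT, lowest on Oa1-/- replicate 1. Most of this sum came from Csf1r, and only Csf1r and Cx3cr1 were lowest on that array, while Cd68, C1qa and Aif1 were lowest on others. The part of these markers in the Adcy7 values was not tested. The dim Adcy7 probe sets gave 57.8, 49.98 and 48.9 in Oa1-/- against 51.3, 66.9 and 50.3 in WT on 1450065_at. On 1420970_at they gave 26.0, 10.6 and 57.4 in Oa1-/- against 33.7, 39.9 and 4.10 in WT, a scatter that spans the background range.

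Adcy9, a widely expressed cyclase, had the least variable probe set of the family. On 1418586_at it read 302, 323 and 341 in Oa1-/- and 336, 354 and 339 in WT. The genotypes overlapped, and the coefficient of variation over the 6 arrays was 5.34%, against 6.59% to 68.4% for the other 19 cyclase probe sets. Between genotypes the log2 change was −0.09 (95% interval −0.37 to 0.19, limma adjusted p = 0.985). All 4 Adcy9 probe sets passed the filter, and the other 3 had log2 changes of 0.02 (1419811_at), 0.07 (1449620_s_at) and −0.03 (1434454_at). With 1 array left out, the changes of these 3 ran from −0.22 to 0.19 and each took both signs. The annotation lists the same source sequence for 1419811_at and 1449620_s_at, and their correlation over the 6 arrays was 0.75. With 1418586_at these had correlations of 0.07 and 0.40. The 95% intervals of these 4 probe sets all lay between −0.56 and 0.50.

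The signals of the 13 tested cyclase probe sets were lowest on just 2 of the 6 arrays. Oa1-/- replicate 1 held the lowest value of 8 probe sets, and WT replicate 1 that of the other 5. Over all 27022 probe sets, these arrays held the lowest value of 27.7% and 19.4%. The first set comprised 1418128_at of Adcy6, 1456307_s_at of Adcy7, both tested Adcy3 probe sets and all 4 of Adcy9. The second comprised the tested probe sets of Adcy1, Adcy2 and Adcy5. On the brightest probe sets, Adcy6, Adcy7 and Adcy9 had pairwise Pearson correlations of 0.89 to 0.93 over the 6 arrays. Adcy1 had correlations of 0.85 with Adcy2 and 0.81 with Adcy5, and Adcy2 had one of 0.42 with Adcy5. Between Adcy1, Adcy2 or Adcy5 and Adcy6, Adcy7 or Adcy9 the correlations ran from −0.395 to −0.015. The 6 points of each correlation share the arrays. With them they share the 18S signal and low median signal of Oa1-/- replicate 1 and the marker sums of WT replicate 1. The part of any of these in the patterns was not tested.

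**Figure D3:**
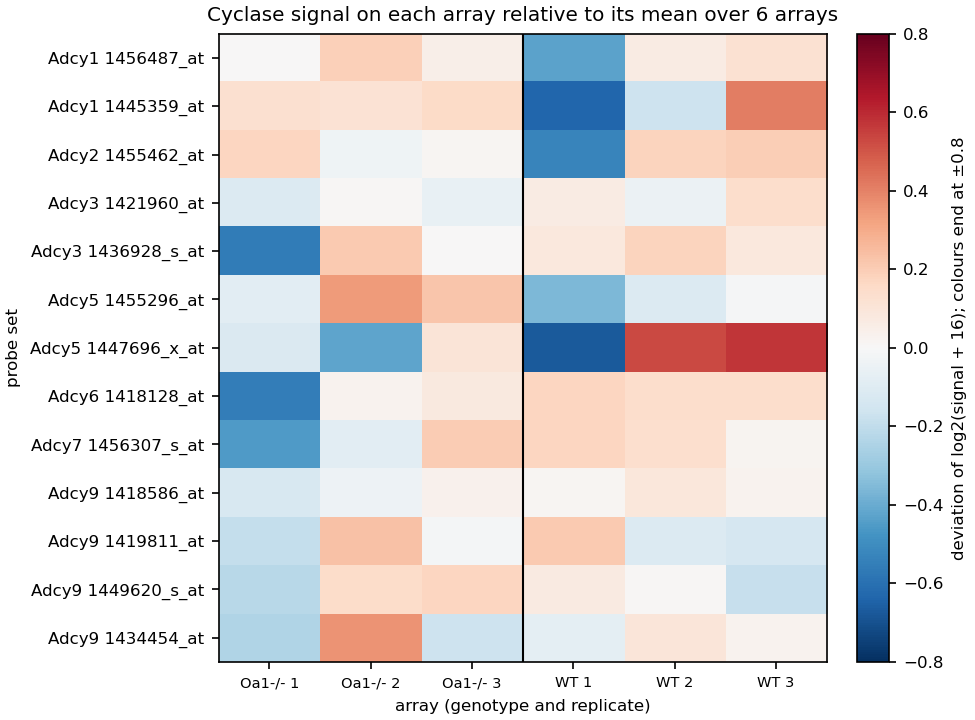
Deviation of each of the 13 tested cyclase probe sets (rows) from its mean over the 6 arrays (columns, Oa1-/- left of WT), in units of log2(signal + 16). The lowest values lie on Oa1-/- replicate 1 for Adcy3, Adcy6, Adcy7 and Adcy9 and on WT replicate 1 for Adcy1, Adcy2 and Adcy5.

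**Figure D4:**
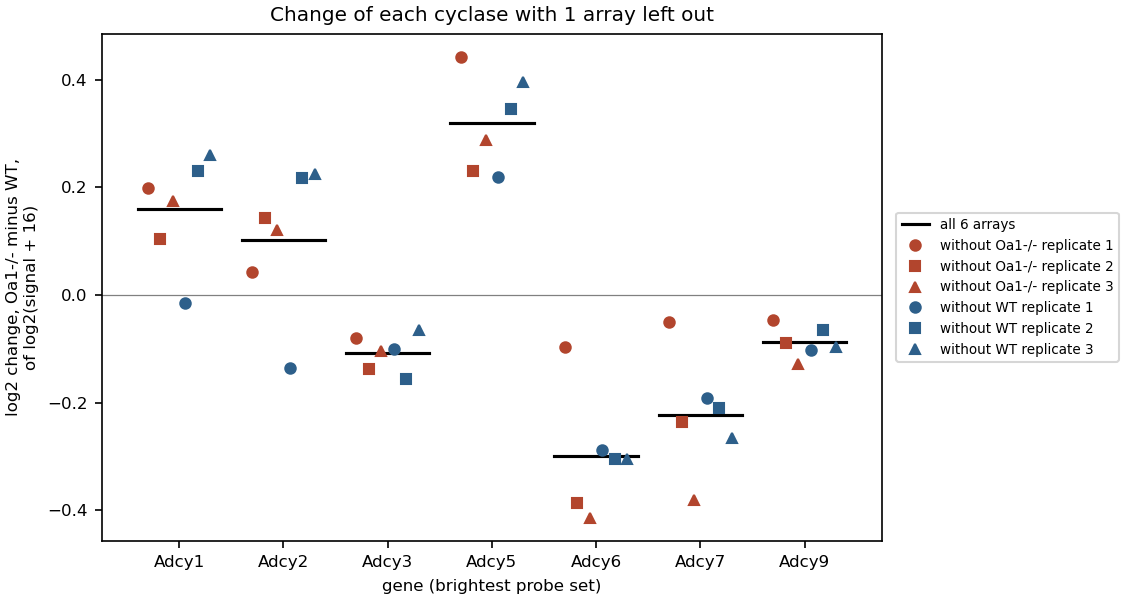
Log2 change (Oa1-/- minus WT) of the brightest probe set of 7 cyclases with all 6 arrays (line) and with each array left out (points). Adcy1 and Adcy2 turn negative only without WT replicate 1, at −0.01 and −0.14, and Adcy6 and Adcy7 come nearest to 0 without Oa1-/- replicate 1, at −0.10 and −0.05.

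The probe sets of other genes whose pattern over the 6 arrays was most like that of a cyclase are given by name, by Pearson correlation of log2(signal + 16) among the probe sets tested. With 6 arrays, high correlations are common: between 33 and 288 other probe sets reached 0.95 with a given cyclase. Adcy1 (1456487_at) was followed most closely by the mitochondrial carrier gene Slc25a5 and by Gnb3, a G protein β subunit of photoreceptors and bipolar cells, with correlations of 0.99 each. Gnb3 (1449159_at) read 330.4, 412 and 347 in Oa1-/- and 156, 342 and 348 in WT, low only on WT replicate 1. For Adcy2 they were the collagen gene Col1a2 and the synaptic organiser Cbln1 (0.99 each), and for Adcy3 the Rab regulator Tbc1d30 and the mitochondrial chaperone Trap1 (0.99 each). Adcy5 was matched by the arginine methyltransferase Prmt2 and by Hecw1, a ubiquitin ligase (0.99 each). Prmt2 (1416844_at) read 2382, 3779 and 3309 in Oa1-/- and 1800.0, 2401 and 2402 in WT, lowest on replicate 1 of each genotype. Adcy6 was matched by Ascc3 and the ciliary gene Dzip1 (0.997 and 0.996), Adcy7 by Rc3h2 and the noncoding RNA Rian (0.996 each) and Adcy9 by the kinase Camk1d (0.992) and 2310057M21Rik (0.991). The limma adjusted p-values of these 14 probe sets between genotypes lay between 0.985 and 0.997.

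The genes around the cyclases in the cAMP pathway gave no call either. Of 97 genes in 10 lists, 82 had a probe set with a single symbol, and 71 passed the filter on their brightest probe set. The other 15, among them the 3 calmodulin genes, were not analysed here. The log2 change was positive for 40 of the 71 and negative for 31, with a median of 0.02, and 0 had an adjusted p below 0.05 in limma. At an unadjusted p below 0.05 there were 2, both higher in Oa1-/-, which is 2.82% against 4.1% of all probe sets. They were Akap7, an anchor of protein kinase A, and Pkia, an inhibitor of that kinase. The genotypes did not overlap for 4 of 11 A-kinase anchors, 3 of 9 protein kinase A genes and 2 of 9 cAMP-induced transcripts. The same held for 2 of 12 phosphodiesterases, 1 of 11 ligands and receptors, 1 of 5 inhibitory Gα genes and 0 in the other lists tested. These counts pool both directions, and the shares that follow are given for each direction on its own. Of the genes counted, Akap12, Prkacb, Prkar2a, Nr4a2 and Fos were lower in Oa1-/- and the others higher. Over all probe sets tested, 5.31% did not overlap with the lower values in Oa1-/- and 4.93% with the higher values there. No list was tested as a set.

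Among the G protein α subunits, both stimulatory genes had a positive log2 change. Gnas, which encodes Gαs, had one of 0.04 (SE 0.08), and Gnal, its relative in olfactory neurons and striatum, one of 0.38 (SE 0.22). Of the 5 inhibitory genes 4 had a positive change, with Gnai1 at 0.16 (SE 0.09) and Gnai3 at 0.07 (SE 0.09). The genotypes did not overlap for Gnai1. Of 11 ligands and receptors tested, 8 had a positive and 3 a negative change. Vipr2, a receptor for the neuropeptides VIP and PACAP, read 93.1, 121 and 84.9 in Oa1-/- and 61.9, 72.7 and 71.6 in WT. All 3 Oa1-/- arrays lay above all 3 WT arrays, with a log2 change of 0.44 (SE 0.22, limma adjusted p = 0.985). Adcyap1, which encodes PACAP, a peptide named for activating adenylyl cyclase, read 206, 209 and 237 in Oa1-/- and 178, 212 and 149.9 in WT, which overlapped. Its log2 change was 0.26 (SE 0.17, limma adjusted p = 0.985).

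**Figure D5:**
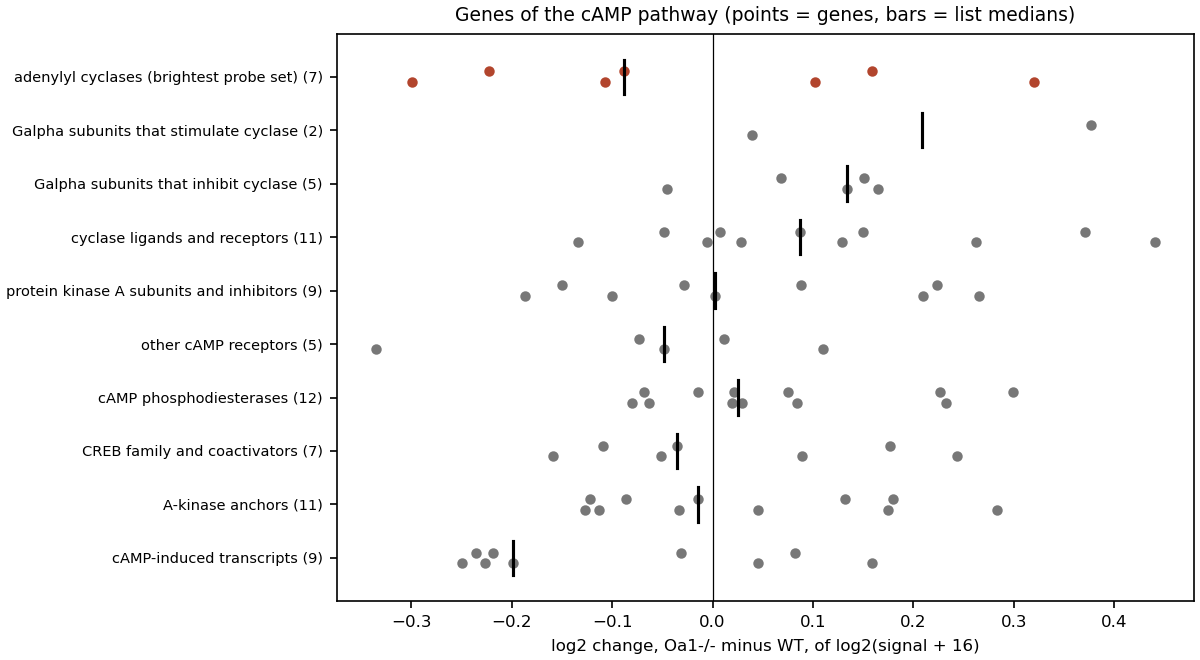
Log2 change (Oa1-/- minus WT, horizontal axis) of each gene tested in 9 lists of the cAMP pathway and of the 7 tested cyclases, on the brightest probe set of each gene, with bars at the list medians. Points lie on both sides of 0 in all lists but that of the 2 stimulatory Gα genes, and none passed an adjusted p of 0.05.

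Downstream of cAMP, the protein kinase A list had 5 positive and 4 negative changes of 9. Pkia (1420859_at) read 2984, 2691 and 2618 in Oa1-/- and 2032, 2335 and 2543 in WT. The genotypes did not overlap, with a log2 change of 0.27 (SE 0.10, limma adjusted p = 0.985, with an unadjusted p of 0.0312). Prkacb, a catalytic subunit of the kinase, lay the other way, at 1446, 1675 and 1455 in Oa1-/- and 1699, 1785 and 1719.5 in WT (log2 change −0.19, SE 0.09). Its genotypes did not overlap either. Akap7 (1433905_at) read 1434, 1312 and 1268 in Oa1-/- against 1012, 1124 and 1154 in WT, again with no overlap. Its log2 change was 0.28 (SE 0.10, limma adjusted p = 0.985, with an unadjusted p of 0.0168). The 11 A-kinase anchors together had 5 positive and 6 negative changes, with Akap6 at 0.18 (SE 0.09) and also without overlap.

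The other cAMP-binding proteins had 2 positive and 3 negative changes of 5, with the Popeye family genes Popdc3 at −0.33 (SE 0.27) and Bves at 0.11 (SE 0.23). Of 12 phosphodiesterases, which degrade cAMP, 8 had a positive and 4 a negative change. Pde4b had a log2 change of 0.30 (SE 0.16) and the calmodulin-dependent Pde1c one of 0.23 (SE 0.12), both with no overlap of the genotypes. In the CREB list 3 changes were positive and 4 negative, with the coactivator Crtc3 at −0.16 (SE 0.11) and Crem, a CREB relative, at 0.18 (SE 0.15). Transcripts that cAMP can induce had 3 positive and 6 negative changes of 9, with a median of −0.20. Fos, an immediate early gene, read 156, 152 and 175 in Oa1-/- and 199, 186 and 197 in WT. Nr4a2, an orphan nuclear receptor, read 409.6, 389 and 394 in Oa1-/- and 526, 444 and 447 in WT. For both genes all Oa1-/- arrays lay below all WT arrays, with log2 changes of −0.25 (SE 0.15) and −0.24 (SE 0.12), and neither passed (limma adjusted p = 0.985).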

How the data were processed

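The deposited table holds 1 linear signal intensity for each probe set on each array. The authors computed it with MAS5, of which the submitters' processing notes give no version. Each array had been scaled, since the 2% trimmed mean of the signals was 500.002 on all 6 arrays. Per the labels' protocols, 12.5 micrograms of total RNA went into each labelling. With 3 arrays per genotype, their number limits the precision.

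Of 45101 probe sets, 64 were controls and were left out of the tests, and the platform annotation gave 1 symbol for 34958, several for 932 and none for 9147. Entrez identifiers matched 34754 of the symbols in a RefSeq table (GRCm38.p6) and changed 0. Probe sets above the 40th percentile of the mean signal were kept, and log2(signal + 16) was fitted with limma 3.58.1 in R 4.3.3 (lmFit, eBayes with an intensity trend, Oa1-/- minus WT, no covariate). All tests were two-sided, and p-values were adjusted by Benjamini and Hochberg's method over all 27022 probe sets. The scale understates changes of dim probe sets. Single probe sets were also compared by exact permutation. The code was tested on simulated data.

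The brightest probe set stands for a gene where 1 value is given. All cyclase probe sets are named, with the 2 genes of smallest p in each pathway list and the 2 most similar probe sets of other genes for each tested cyclase. The cyclases and lists were chosen with earlier results of these data known.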

Additional observations from a re-analysis of the deposited data

How the results depend on the processing

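Across 17 alternatives (pseudocounts of 1 and 64, other filters, normalizations, weights and variance settings, averaged probe sets, a block and arrays left out), 0 cyclase probe sets passed the adjusted threshold in any of the 16 fitted by probe set. Over all probe sets the count was 0, and 2 with median centring or with array weights, where Gpr143 passed in the first (log2 change −2.79, adjusted p = 0.00119). Cyclase probe sets at an unadjusted p below 0.05 numbered 0 in the reported fit, 1 with no filter, 2 with array weights, 1 without both WT replicate 3 and Oa1-/- replicate 1, and 0 to 1 with 1 array left out. The share of all probe sets at that p, 4.1%, is known for the reported fit only, so the other counts have no like share beside them. Those with array weights were both of Adcy5, with opposite signs (log2 changes 0.43 and −0.63, limma adjusted p = 0.309 and 0.416). Outside the fits that left out 1 array, 73 of 74 values of the brightest cyclase probe sets kept their sign. The exception was Adcy2 at −0.063 with array weights, and the cause was not tested. Many of these values could not change. The other filters, the fit without an intensity trend and the block leave the estimate as it was, as does averaging for a gene with a single tested probe set. Averaging its tested probe sets gave 0.02 for Adcy5, against 0.32 on its brightest.

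With 1 array left out, log2 changes ran from −0.014 to 0.26 for Adcy1, −0.14 to 0.22 for Adcy2, −0.16 to −0.07 for Adcy3, 0.22 to 0.44 for Adcy5, −0.41 to −0.10 for Adcy6, −0.38 to −0.05 for Adcy7 and −0.13 to −0.05 for Adcy9. For Gpr143 they ran from −3.09 to −2.43, and its change was −3.64 with a pseudocount of 1 and −1.85 with a pseudocount of 64. The values gave no sign that equal replicate numbers pair the samples. Deviations of same-numbered arrays had correlations of −0.29, 0.16 and −0.23, and those of differently numbered arrays ran from −0.30 to 0.36. Such correlations cannot exclude a pairing in the design. With the replicate block, 0 probe sets passed. In this balanced design the block cannot alter a change, so Adcy6 stayed at −0.30, and its SE went from 0.16 to 0.15. Low signals limit Adcy8 and the dim probe sets of Adcy3, Adcy5 and Adcy7.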

Other observations

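The family's remaining genes on the array, Adcy4 and Adcy10, were looked at after the other values were known. Adcy4 (1418098_at), a cyclase of the class stimulated by βγ subunits and known in endothelium, read 55.7, 109 and 95.6 in Oa1-/- and 123, 123 and 109 in WT. Its lowest value was on Oa1-/- replicate 1, as for Adcy6 and Adcy7, and the log2 change was −0.42 (SE 0.25, limma adjusted p = 0.985). Summed endothelial markers, over 5 genes, were at 3239, 3240 and 3152 in Oa1-/- and 3067, 3105 and 3230 in WT, with Kdr the largest part of the sum. The log2 change was positive for 4 of the 5 genes, with a median of 0.17. Cldn5 did not overlap between genotypes, with the higher values in Oa1-/- (log2 change 0.18, SE 0.10, limma adjusted p = 0.985). The same held for 4.93% of all probe sets tested. Kdr had a log2 change of −0.07. The part of the endothelial markers in the Adcy4 values was not tested. Adcy10, the soluble cyclase activated by bicarbonate, read 21.5, 35.2 and 50.8 in Oa1-/- and 28.9, 42.1 and 31.1 in WT on 1439613_at, at or below the highest bacterial control on 2 of the 6 arrays.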
